A study of Mus musculus with 15 samples.

Results

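The lobules of the liver are divided into zones, and 35 genes known for their zonation were followed here across both sexes and genotypes. The 35 genes were taken from the table by symbol, 19 from a pericentral list that runs from *Glul* to *Gulo* and 16 from a periportal list that runs from *Cyp2f2* to *Igfbp2*. The table held 55573 genes, of which 17655 had enough counts to be tested, and all 35 members were among them. RNA of the whole liver carries no position, so the zone of each gene is the one that the list gives and was not tested.

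Livers came from 8-week-old mice of strain B6N(Cg)-Esr1tm4.2Ksk/J, with 1 library of total RNA depleted of ribosomal RNA per mouse. The groups were 3 wild type females (FWT), 3 wild type males (MWT), 5 females homozygous for the *Esr1* deletion (FKO) and 4 such males (MKO), and wild type mice were littermates. *Esr1* encodes estrogen receptor alpha. Its exon 3 is missing from the whole body of the ESR1KO mice from conception and not from hepatocytes alone. Mutants of either sex are sterile, with more testosterone than normal, so loss of the receptor in hepatocytes cannot be told apart from its loss elsewhere or from the altered hormones. No treatment was given in the labels.

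Hepatocytes near the central vein of a lobule receive blood that is low in oxygen, and Wnt proteins from the endothelium of that vein keep β-catenin active in them. These pericentral cells make glutamine from ammonia and carry cytochrome P450 enzymes that handle foreign compounds. Periportal hepatocytes receive blood that is rich in oxygen and nutrients, and run the urea cycle, amino acid breakdown and gluconeogenesis.

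Total counts per mouse lay between 27799061 and 78624766, and the 35 members together took between 1.91% and 3.41% of a library. Levels are given as CPM, counts scaled to the library's size with edgeR's TMM factors, which lay between 0.957 and 1.04. *Esr1* was at 74.7, 88.2 and 82.8 CPM in the FWT mice and between 9.67 and 19.7 in the FKO mice. In males it was at 25.04, 31.2 and 51.99 CPM in the MWT mice and between 8.22 and 16.1 in the MKO mice, so that no ESR1KO mouse overlapped a wild type mouse of its own sex. Hepatocyte RNA was present in every library, with *Alb*, *Ttr*, *Apoa1*, *Trf*, *Hnf4a* and *Cebpa* summing to between 70079 and 106196 CPM. A gene counts as called where edgeR's quasi-likelihood test gave an adjusted p under 0.05 (Benjamini-Hochberg, all 17655 genes), and SE is the standard error of a log2 fold change. Shares of all genes called are given for edgeR's adjusted p only. They were not worked out for unadjusted p values or for DESeq2.

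The members spanned a wide range of abundance. Per kilobase of exon, *Cyp2e1*, which oxidises ethanol and small foreign compounds, was the highest at a mean of 2294 CPM per kb over all 15 mice. The urea cycle enzymes *Cps1* and *Ass1* followed at 1192 and 922 CPM per kb. Regulators of the Wnt pathway were near the bottom of the same scale, with 1.07 CPM per kb for *Nkd1*, 0.652 for *Lgr5* and 0.414 for *Sp5*. *Sp5*, a transcription factor, had under 2 CPM in every mouse.

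**Figure D1:**
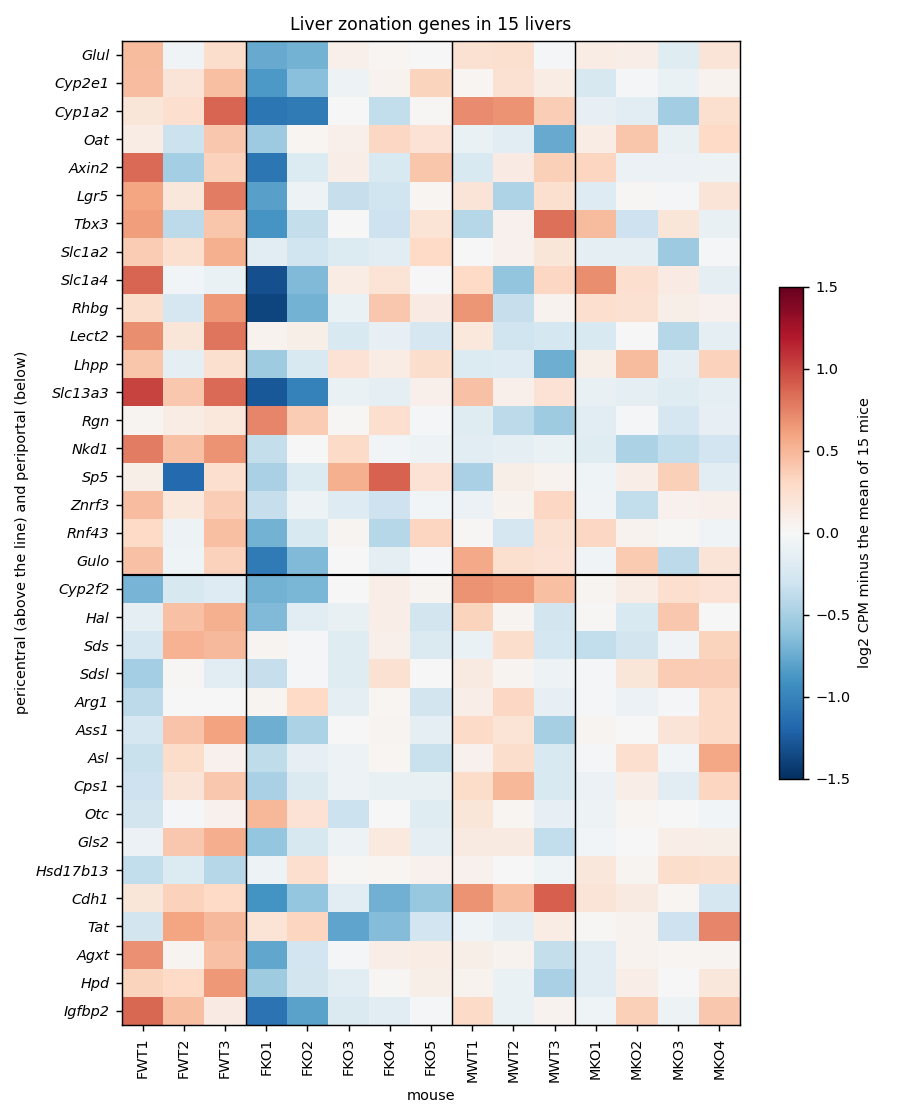
Level of each of the 35 zonation genes (rows, 19 pericentral above the line and 16 periportal below) in each of the 15 mice (columns, by group), as log2 CPM minus the gene's mean over all mice. Blue cells crowd into the columns of FKO1 and FKO2, above all in the pericentral rows, while the 7 male columns are mostly pale.

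Loss of *Esr1* in females came with lower RNA of some genes on both the pericentral and the periportal list. Between FKO and FWT mice, 10 of the 35 members were called (28.6%), against 5.71% of all genes tested. Of these, 9 fell and 1 rose, and genes called lower were 2.57% of all genes tested. On the pericentral list 6 of 19 fell (*Cyp1a2*, *Lgr5*, *Lect2*, *Slc13a3*, *Nkd1* and *Znrf3*), none rose and 13 were not called. On the periportal list 3 of 16 fell (*Cdh1*, *Hpd* and *Igfbp2*), 1 rose (*Hsd17b13*) and 12 were not called. The estimate was below 0 for 17 of 19 pericentral and 11 of 16 periportal genes, with medians of -0.51 and -0.41 on the log2 scale, where the median of all genes tested was -0.00 and 50.1% of them had an estimate below 0. None of the 35 reached a log2 fold change of 1.5. The paper gives that minimum for genes that differ between the sexes, chosen with earlier data, and gives none for the genotypes. In bulk RNA, fewer cells of a zone and less RNA per cell cannot be told apart.

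These female calls changed when single mice were left out. Without the mouse FWT1, 1 member was called in place of 10 (*Cdh1*), without FWT2 there were 6, without FWT3 there were 4 and without FKO2 there were 6. Fitted on the 8 females alone, 3 members were called (*Lect2*, *Znrf3* and *Cdh1*). The share of all genes called in each of these fits was not worked out. Calls lost among the members thus cannot be told apart from calls lost over all genes.

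**Figure D2:**
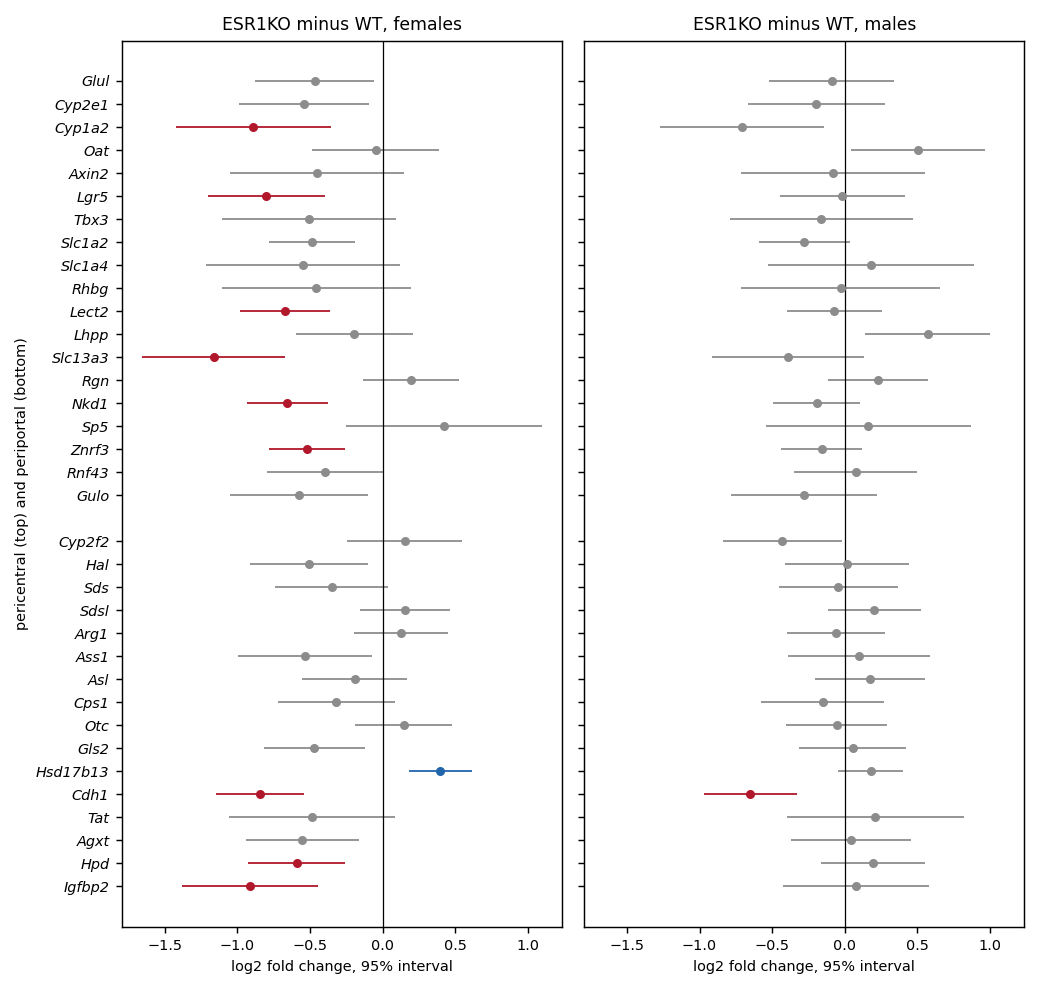
Log2 fold change of ESR1KO over wild type (horizontal axis) for each zonation gene (rows), in females on the left and males on the right, with points for the edgeR estimate and lines for the 95% interval. Red points are genes called lower and the blue point is the gene called higher: 9 red and 1 blue in females, 1 red (*Cdh1*) in males.

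Among pericentral genes of the Wnt pathway, *Nkd1*, *Lgr5* and *Znrf3* fell in ESR1KO females. *Nkd1* encodes an inhibitor of Wnt signalling and is itself a target of β-catenin. It was at 8.02, 6.39 and 7.49 CPM in FWT mice and at 3.68, 4.72, 5.76, 4.59 and 4.47 CPM in FKO mice. In males it was at 4.20, 4.28 and 4.41 CPM in MWT and 4.16, 3.38, 3.66 and 3.86 CPM in MKO mice. The 3 FWT mice thus stood above all 12 others, and the FKO to FWT log2 fold change was -0.66 (SE 0.13, adjusted p = 0.00699). *Lgr5*, a receptor for R-spondins that marks the cells closest to the central vein, was at 9.77, 7.24 and 11.00 CPM in FWT and 3.66, 6.12, 5.08, 5.27 and 6.59 CPM in FKO mice, and the groups did not overlap. Its log2 fold change was -0.80 (SE 0.19, adjusted p = 0.0222). *Znrf3*, a ubiquitin ligase that removes Wnt receptors from the cell surface, was at 17.99, 14.6 and 16.8 CPM in FWT and 10.3, 12.4, 11.4, 10.6 and 12.7 CPM in FKO mice, a log2 fold change of -0.52 (SE 0.12, adjusted p = 0.0222) with groups apart. *Lgr5* and *Znrf3* lost the call without FWT1 or without FWT3, and *Nkd1* without FWT1 (adjusted p = 0.0543).

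The other 4 Wnt pathway members were not called in females. *Axin2*, a scaffold of the complex that degrades β-catenin and a widely used readout of it, was at 10.1 ± 4.42 CPM (SD, n = 3) in FWT and 7.37 ± 2.55 (SD, n = 5) in FKO mice. Its log2 fold change was -0.45 with a 95% interval of -1.05 to 0.15 (adjusted p = 0.362), and the 3 FWT mice alone ran from 5.63 to 14.5 CPM. *Rnf43*, the partner of *Znrf3*, had a log2 fold change of -0.39 (adjusted p = 0.229), and the transcription factor *Tbx3* one of -0.51 (adjusted p = 0.302). *Sp5*, another target of β-catenin, had an estimate on the other side of 0, 0.42 (adjusted p = 0.460).

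Outside the Wnt pathway members, *Slc13a3* and *Lect2* fell in ESR1KO females. *Slc13a3* (chr2:165405028-165473230 on GRCm38) encodes a sodium-coupled carrier of dicarboxylates. It was at 27.4, 18.01 and 24.4 CPM in FWT and 5.62, 6.76, 12.7, 12.4 and 14.3 CPM in FKO mice, and at 18.5, 14.3 and 15.9 CPM in MWT and 12.6, 12.4, 12.03 and 12.4 CPM in MKO mice. All 5 FKO mice lay below all 3 FWT mice, and the log2 fold change of -1.16 (SE 0.23, adjusted p = 0.00724) had the largest size among the 35 members in any comparison. It missed the threshold without FWT1 (adjusted p = 0.0507) and with the females fitted alone (0.0613).

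*Lect2*, a protein that hepatocytes secrete into blood, was at 149, 104 and 160.2 CPM in FWT mice and at 94.95, 97.4, 78.3, 84.5 and 77.3 CPM in FKO mice. Male mice were at 102, 74.5 and 76.6 CPM (MWT) and 78.4, 92.04, 68.4 and 82.7 CPM (MKO), and thus all 12 mice outside the FWT group lay below all FWT mice. The FKO to FWT log2 fold change was -0.67 (SE 0.15, adjusted p = 0.0132), a call lost without FWT1 or without FWT3 (adjusted p up to 0.105).

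Pericentral enzymes of drug and ammonia metabolism gave estimates below 0 with 1 call. *Cyp1a2*, which oxidises caffeine and aromatic amines, was at 483, 507 and 783 CPM in FWT and 202, 204, 426, 329.7 and 433 CPM in FKO mice. In males it was at 700.0, 679 and 552 CPM in MWT and 392, 383, 297 and 502 CPM in MKO mice, and neither sex had an ESR1KO mouse that overlapped a wild type mouse. The female log2 fold change of -0.89 (SE 0.25, adjusted p = 0.0486) was at the edge of the threshold and lost the call when any mouse other than FKO3 or FKO5 was left out, 13 of the 15, with an adjusted p of up to 0.266. The male log2 fold change was -0.71 (SE 0.27, adjusted p = 0.263), not past the threshold. *Cyp2e1* was at 6241 ± 633 CPM (SD, n = 3) in FWT and 4287 ± 1396 (SD, n = 5) in FKO mice, with a log2 fold change of -0.54 and an interval of -0.99 to -0.10 (adjusted p = 0.138). *Glul*, the glutamine synthetase of the innermost pericentral cells, was at 1224 ± 218 CPM (SD, n = 3) in FWT and 885 ± 239 (SD, n = 5) in FKO mice, with a log2 fold change of -0.47 and an interval of -0.88 to -0.06 (adjusted p = 0.164).

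The remaining 7 pericentral members were not called by edgeR in ESR1KO females, and their log2 fold changes ran from -0.58 (*Gulo*, the last enzyme of vitamin C synthesis) to 0.20 (*Rgn*, an enzyme of the same pathway). *Slc1a2*, a glutamate transporter, came closest at -0.49 (adjusted p = 0.0531) and was called by DESeq2 (adjusted p = 0.0187). The ammonia channel *Rhbg*, the amino acid transporter *Slc1a4*, the phosphatase *Lhpp* and *Oat*, which links ornithine to glutamate, lay between with adjusted p values from 0.319 to 0.918. Exons of *Rhbg* share 1190 bases with another annotated gene on the same strand and those of *Glul* 93 bases with the miRNA gene *Mir8114*, also on the same strand. Those of *Glul*, *Axin2*, *Tbx3*, *Slc1a2*, *Cyp2f2*, *Sds* and *Gls2* share between 97 and 360 bases with a gene on the other strand. How such reads were counted is not given in the sources used here.

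Promoter sequences show where letters of the TCF/LEF type, through which β-catenin acts on DNA, occur in front of the members. RefSeq's table for GRCm38.p6 held 21 of the 35 members, 12 pericentral and 9 periportal, in 23 windows of 250 bases before a transcription start. CTTTGAT or CTTTGAA, searched on both strands and alike in their first 6 letters, occurred in 6 of the 23 windows, against 7.479% of 32851 windows of the same length over all genes. The first form was found before the pericentral genes *Lect2*, *Slc1a2* and *Sp5* and the periportal gene *Hal* (3.205% of all windows), and the second before the pericentral genes *Cyp1a2* and *Cyp2e1* (4.456%). The palindrome that estrogen receptors prefer, GGTCA and TGACC with any 3 bases between them, occurred in 0 of the 23 windows and in 0.06392% of all. Of the genes called in females, *Slc13a3*, *Nkd1*, *Hpd*, *Igfbp2* and *Hsd17b13* had windows without a match to either form. Only windows with a match are shown, those of the called genes *Lect2* and *Cyp1a2* and of the most abundant member, *Cyp2e1*, with matched letters in capitals. The matched letters begin 32 bases before the start of *Lect2* (chr13:56548539-56548788, minus strand), 244 before that of *Cyp1a2* (chr9:57683656-57683905, minus strand) and 135 before that of *Cyp2e1* (chr7:140763569-140763818, plus strand).
Lect2: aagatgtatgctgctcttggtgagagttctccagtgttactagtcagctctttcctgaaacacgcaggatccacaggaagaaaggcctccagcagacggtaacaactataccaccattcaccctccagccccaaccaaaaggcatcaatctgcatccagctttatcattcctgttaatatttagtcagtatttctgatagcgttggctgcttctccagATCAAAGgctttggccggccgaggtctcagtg
Cyp1a2: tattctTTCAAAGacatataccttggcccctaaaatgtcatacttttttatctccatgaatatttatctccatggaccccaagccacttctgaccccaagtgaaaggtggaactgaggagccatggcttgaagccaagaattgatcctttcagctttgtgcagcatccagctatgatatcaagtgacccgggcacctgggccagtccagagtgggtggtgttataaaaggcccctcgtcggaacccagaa
Cyp2e1: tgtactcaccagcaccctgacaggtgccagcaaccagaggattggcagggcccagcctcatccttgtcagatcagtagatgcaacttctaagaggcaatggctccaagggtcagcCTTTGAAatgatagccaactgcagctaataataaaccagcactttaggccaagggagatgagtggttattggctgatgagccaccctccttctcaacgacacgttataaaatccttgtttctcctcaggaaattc
The windows read 5′ to 3′ on the strand of the gene, and before *Lect2* and *Cyp1a2* the match is the reverse complement of the letters searched. A match describes letters and not a site in use.

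Among periportal genes, *Cdh1* was the only member called in both sexes. It encodes E-cadherin, the adhesion protein of epithelial junctions, and lies at chr8:106603351-106670246 of GRCm38. *Cdh1* was at 45.8, 51.2 and 49.6 CPM in FWT and 21.6, 26.9, 35.7, 24.5 and 27.1 CPM in FKO mice, a log2 fold change of -0.85 (SE 0.14, adjusted p = 0.00208). In males it was at 64.3, 55.2 and 74.8 CPM in MWT and 46.2, 44.2, 40.98 and 33.7 CPM in MKO mice, a log2 fold change of -0.65 (SE 0.15, adjusted p = 0.0402). ESR1KO mice lay below wild type mice of their sex with no overlap. The female call stayed when any 1 mouse was left out (-0.96 to -0.78) and under all 8 other settings, while the male call was lost without FWT2, FWT3, MWT1, MWT3, FKO2 or any one of the 4 MKO mice, with an adjusted p of up to 0.230. The effects in females and males differed by -0.19 (adjusted p = 0.697), not past the threshold. Bile duct cells also carry *Cdh1*. Of 7 cholangiocyte markers tested, 1 rose in ESR1KO females (*Spp1*, 0.60, adjusted p = 0.0272), where 5.71% of all genes tested were called. In ESR1KO males 2 rose (*Krt19*, 1.23, adjusted p = 0.0307, and *Epcam*, 0.95, adjusted p = 0.0300), where the share was 1.42%. The summed level of the 7 markers was between 37.3 and 37.6 CPM in FWT, 48.1 and 56.2 in FKO, 38.1 and 62.4 in MWT and 46.3 and 65.6 in MKO mice, with none of the 7 at 0 in all mice. The *Spp1* call was lost without any 1 of the FWT mice and without FKO1 and FKO2, that of *Krt19* without any 1 of the males except MKO4 and with the males fitted alone, and that of *Epcam* without any 1 of the MWT mice, MKO3 or MKO4. The part of bile duct cells in the *Cdh1* result was not tested.

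*Igfbp2* and *Hpd* fell and *Hsd17b13* rose in ESR1KO females. *Igfbp2*, a secreted binding protein of insulin-like growth factors, was at 437, 327 and 262 CPM in FWT and 111, 138, 206, 215 and 236 CPM in FKO mice, a log2 fold change of -0.91 (SE 0.22, adjusted p = 0.0248). It was at 293, 224 and 249 CPM in MWT and 229, 307, 227 and 317 CPM in MKO mice, which overlapped. *Hpd*, an enzyme of tyrosine breakdown, was at 2073, 2021 and 2588 CPM in FWT and 1142, 1358, 1467, 1673 and 1743 CPM in FKO mice, with groups apart and a log2 fold change of -0.59 (SE 0.16, adjusted p = 0.0382). Leaving out any one of the 3 FWT mice, MWT2, FKO1, FKO2, FKO3, MKO1 or MKO3 ended the *Hpd* call (adjusted p up to 0.207), and leaving out FWT1, FWT2 or FKO2 ended that of *Igfbp2* (up to 0.143). *Hsd17b13*, an enzyme of lipid droplets, was at 195, 219 and 188 CPM in FWT and 239.7, 303, 258, 259.6 and 264 CPM in FKO mice, a log2 fold change of 0.40 (SE 0.10, adjusted p = 0.0314). It had the smallest change among the 10 called members, and the call was lost without any one of FWT1, FWT2, FWT3 or FKO2 (adjusted p up to 0.163). With no filter on low counts neither *Hsd17b13* nor *Hpd* was called.

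**Figure D3:**
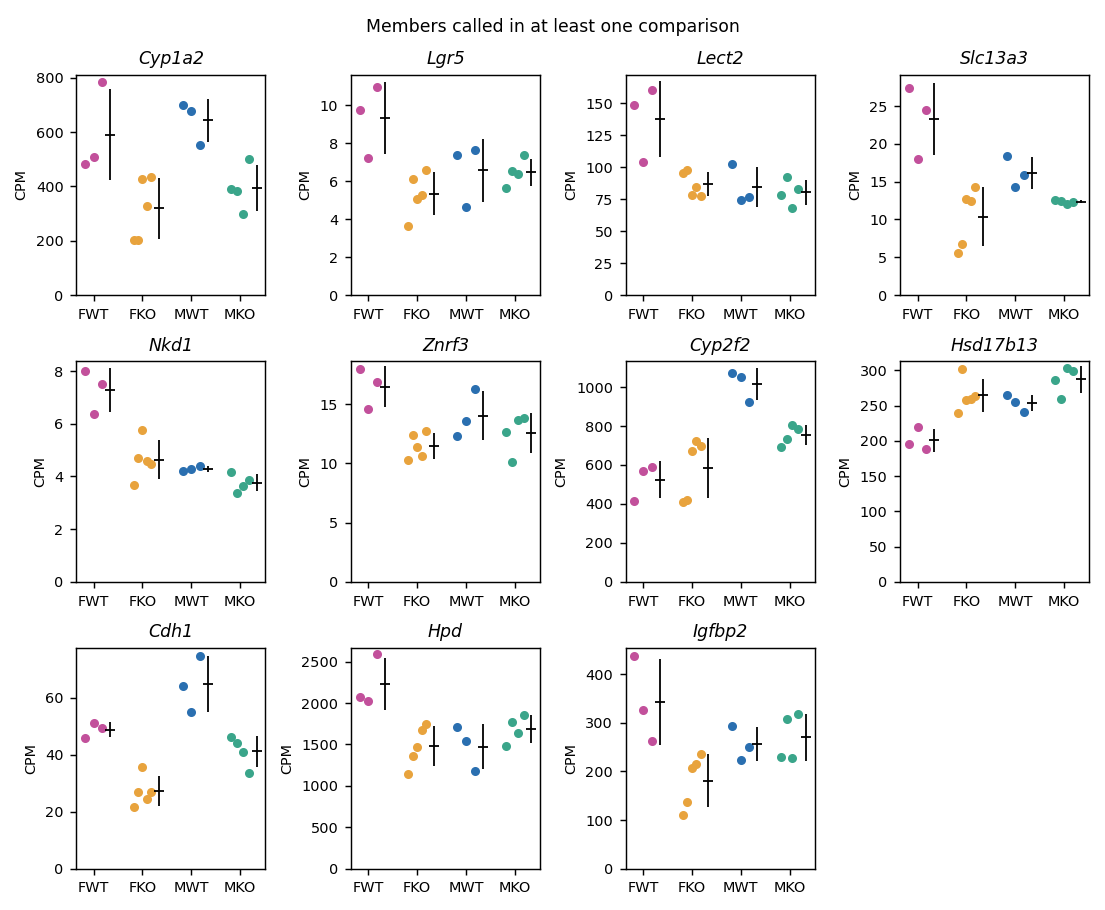
CPM in each mouse (points, by group) of the 11 zonation genes called in at least one comparison, with the group mean and SD as a cross and bar beside the points and axes that start at 0. FWT mice (3) stand above FKO mice (5) without overlap in 9 panels and below them in that of *Hsd17b13*, and in the *Cyp2f2* panel the MWT mice stand above all other mice. The panels were chosen by calls on these same values, so groups that stand apart are no separate support.

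None of the 5 urea cycle enzymes was called in either sex, where 5.71% of all genes tested were called in females and 1.42% in males. At such shares, 0 calls among so few genes does not set them apart from genes in general. In females the log2 fold changes were -0.54 for *Ass1* (adjusted p = 0.157), -0.32 for *Cps1* (0.333), -0.19 for *Asl* (0.533), 0.12 for *Arg1* (0.667) and 0.15 for *Otc* (0.618). *Cps1*, which makes carbamoyl phosphate from ammonia, was at 7106 ± 1699 CPM (SD, n = 3) in FWT and 5689 ± 620.1 (SD, n = 5) in FKO mice, and at 7519 ± 1830.0 (SD, n = 3) in MWT and 6760.1 ± 1042 (SD, n = 4) in MKO mice. *Arg1*, which releases urea, was at 1160.4 ± 172 CPM (SD, n = 3) in FWT and 1265 ± 190.1 (SD, n = 5) in FKO mice, with an interval of the difference of -0.20 to 0.45. *Ass1*, which joins citrulline and aspartate, varied between 1813 and 3285 CPM among the 3 FWT mice. A further 10 genes of ammonia and ornithine handling could be tested (*Nags*, *Glud1* and carriers among them). Of these 0 were called by edgeR or DESeq2 in either genotype comparison, and the same limit holds for so few genes. At an unadjusted p under 0.05 there were 2 in females and 1 in males, with no share of all genes worked out. Their estimate was below 0 for 9 of 10 in females, against 50.1% of all genes tested, and for 3 of 10 in males.

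Enzymes of amino acid breakdown had female log2 fold changes from -0.59 (*Hpd*) to 0.15 (*Sdsl*). Apart from *Hpd* none was called by edgeR. *Gls2*, the liver glutaminase, was at 421 ± 89.97 CPM (SD, n = 3) in FWT and 304 ± 54.5 (SD, n = 5) in FKO mice, a log2 fold change of -0.47 (adjusted p = 0.103). *Hal*, which opens histidine breakdown, was at 472 ± 110.2 CPM (SD, n = 3) in FWT and 332 ± 61.1 (SD, n = 5) in FKO mice, a log2 fold change of -0.51 (adjusted p = 0.127). *Agxt*, which clears glyoxylate, had a log2 fold change of -0.55 (adjusted p = 0.0879, but 0.0475 and called by DESeq2), the tyrosine aminotransferase *Tat* one of -0.49 (0.299) and the serine dehydratase *Sds* one of -0.35 (0.274). *Sds* and *Sdsl* are neighbours on chromosome 5 and close in sequence. On a list of 26 other amino acid enzymes, 1 rose and 1 fell in ESR1KO females by edgeR, where 5.71% of all genes tested were called. On this list 11 had an unadjusted p under 0.05, and DESeq2 called 5 (*Prodh*, *Shmt1*, *Hao1*, *Tdo2* and *Uroc1*). The 5.71% covers edgeR calls only, and no share of all genes was worked out for these other counts. The estimate was below 0 for 20 of the 26 in females, against 50.1% of all genes tested, and for 10 of the 26 in males. *Hao1*, a glycolate oxidase, was at 183, 162 and 164 CPM in FWT and 408, 363, 309, 333 and 312 CPM in FKO mice and rose by a log2 fold change of 1.02 (SE 0.15, adjusted p = 0.000679). The effect on *Hao1* differed between females and males by 1.17 (SE 0.22, adjusted p = 0.00635). *Shmt1*, of serine and glycine metabolism, fell (-0.50, adjusted p = 0.0442), a call lost in 12 of the 15 fits that left out a mouse, and also without FKO1 and FKO2, with the females fitted alone and with no filter on low counts.

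In males, loss of *Esr1* called 1 of the 35 members (*Cdh1*, 2.86%), against 1.42% of all genes tested. The medians were -0.08 for the pericentral and 0.05 for the periportal list, and estimates lay below 0 for 13 of 19 and 6 of 16. For all genes tested the median was -0.00, and 50.2% had an estimate below 0. Over all 35 members the male log2 fold changes ran from -0.71 to 0.57. No pericentral gene was called by edgeR or DESeq2, and 3 had an unadjusted p under 0.05, with *Cyp1a2* lower at -0.71 and *Lhpp* and *Oat* higher at 0.57 and 0.50. *Glul* had a male log2 fold change of -0.09 with an interval of -0.52 to 0.34, *Lgr5* one of -0.02 with -0.45 to 0.41, and *Axin2* one of -0.08 with -0.71 to 0.55. *Slc13a3* was at 16.2 ± 2.11 CPM (SD, n = 3) in MWT and 12.4 ± 0.228 (SD, n = 4) in MKO mice without overlap, and its log2 fold change was -0.39 (adjusted p = 0.6002).

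Whether the effect of the deletion differed between the sexes was tested as an interaction. By edgeR it was called for 0 of the 35 members, against 1.94% of all genes tested. Apart from this, 10 members had an unadjusted p under 0.05 and DESeq2 called 1 (*Hpd*), counts for which no share of all genes was worked out. The female effect minus the male effect was below 0 for 18 of 19 pericentral and 12 of 16 periportal genes, with medians of -0.38 and -0.33. It was below 0 for 51.1% of all genes tested, with a median of -0.01. The same FWT and FKO mice entered the interaction and the female comparison, so their values share their error. The sizes furthest from 0 were -0.99 for *Igfbp2* (adjusted p = 0.172) and -0.79 for *Hpd* (0.115). With FKO1 and FKO2 left out, edgeR called 1 member (*Cyp2f2*, higher in the female effect).

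Between wild type females and males, 3 of 35 members were called (8.57%), against 4.87% of all genes tested. *Nkd1* was higher in FWT than in MWT mice by 0.76 (SE 0.15, adjusted p = 0.00463) and *Lect2* by 0.71 (SE 0.17, adjusted p = 0.0189) on the log2 scale. *Cyp2f2*, the periportal cytochrome P450, was lower in females. It was at 417, 570.1 and 589 CPM in FWT and 1074, 1051 and 922 CPM in MWT mice, a log2 fold change of -0.95 (SE 0.21, adjusted p = 0.0123). In FKO mice it was at 412, 421, 669.9, 723 and 696 CPM and in MKO mice at 691, 731, 804 and 786 CPM. Neither genotype comparison called *Cyp2f2*, with 0.15 in females (adjusted p = 0.664) and -0.43 in males (0.387), though the 4 MKO mice lay below the 3 MWT mice. The same FWT mice entered this comparison and the female genotype comparison, so the values of *Nkd1* and *Lect2* in both share their error. Without FWT1, *Nkd1* alone was called between the sexes, without FKO1 there were 5 calls in place of 3, and DESeq2 called 5. *Lect2* also lost the call without FWT3, MWT2 or MWT3 and *Cyp2f2* without MWT1.

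Between ESR1KO females and males, edgeR called 0 of 35 members, against 0.272% of all genes tested. Apart from this, 7 had an unadjusted p under 0.05 and DESeq2 called 1 (*Cdh1*), again without a share of all genes. No member had FKO and MKO mice that did not overlap, and how many of all genes tested had such groups was not counted. *Cdh1* came nearest at -0.60 (SE 0.13, adjusted p = 0.0690) and was called by edgeR when FKO3 was left out. For *Nkd1* the difference was 0.30 with an interval of 0.04 to 0.57, for *Lect2* it was 0.11 with -0.18 to 0.40, and for *Cyp2f2* it was -0.37 with -0.73 to -0.00.

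The FKO group was not uniform. FKO1 and FKO2 both lay below the other 3 FKO mice in 18 of 35 members (51.4%), against 24.04% of all genes tested, and both above in 5 (*Lect2*, *Rgn*, *Arg1*, *Otc* and *Tat*), against 26.6%. The 18 were 11 of 19 pericentral and 7 of 16 periportal genes. *Glul* was at 614, 635, 1088, 1055 and 1036 CPM in FKO1 to FKO5, *Cyp2e1* at 2658, 3121, 4581, 4999 and 6074 CPM and *Cyp1a2* at 202, 204, 426, 329.7 and 433 CPM. In FKO1 and FKO2 the 10 most abundant genes took 24.7% and 22.1% of the counts, more than in any other mouse (15.97% to 20.3%), and the part of this in the member values was not tested. Both mice were above the other 3 in *Arg1*, at 1297 and 1549.8 CPM, and in *Otc*, at 675 and 558 CPM.

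With FKO1 and FKO2 left out, an alternative added after these values were seen, 6 members were called between FKO and FWT mice, against 4.47% of 17504 genes. All 6 were among the 10 called with every mouse (*Lect2*, *Slc13a3*, *Nkd1*, *Znrf3* and *Cdh1* lower, *Hsd17b13* higher). The pericentral median moved from -0.51 to -0.26 and the periportal median from -0.41 to -0.33, with estimates below 0 for 16 of 19 and 13 of 16 genes. *Slc13a3* was at -0.83 (adjusted p = 0.00340) without both mice, *Cdh1* at -0.75 (0.0121) and *Lect2* at -0.78 (0.0139). The calls lost were *Cyp1a2* (-0.58, adjusted p = 0.129), *Lgr5* (-0.72, 0.0513), *Hpd* (-0.45, 0.0987) and *Igfbp2* (-0.64, 0.0635). *Glul* moved to -0.21 and *Cyp2e1* to -0.26 (from -0.47 and -0.54), with neither called in either fit. The sign of *Oat*, *Lhpp*, *Rgn*, *Arg1* and *Otc*, none of them called, changed.

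**Figure D4:**
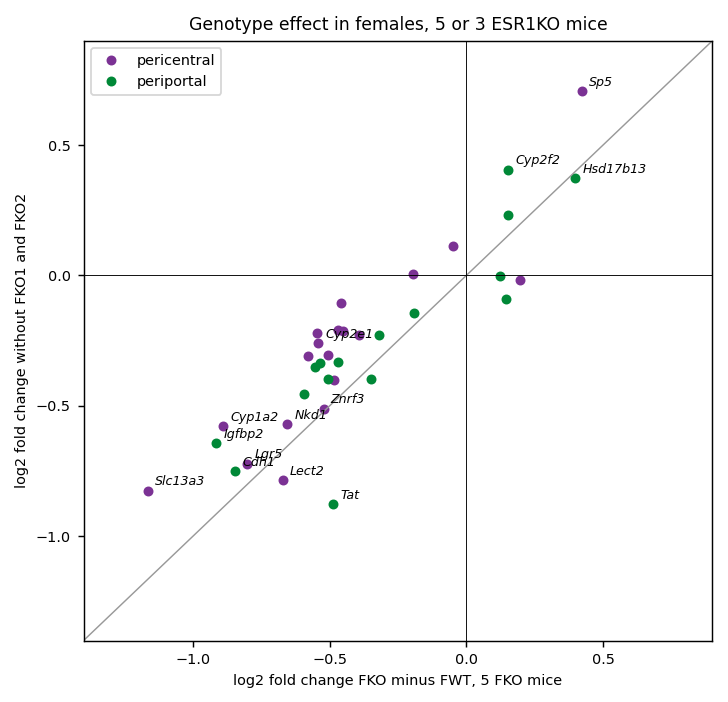
Log2 fold change of FKO over FWT for each of the 35 zonation genes with all 5 FKO mice (horizontal) and without FKO1 and FKO2 (vertical), pericentral in purple and periportal in green, with the line of equal values in grey. Most pericentral points lie above the line, nearer 0 on the vertical axis (median -0.26 against -0.51), while *Znrf3* and *Hsd17b13* stay close to it.

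The balance between both zones was described per mouse by the mean deviation of the log2 CPM of each list from the mean of all 15 mice. The pericentral mean was 0.30 ± 0.29 (SD, n = 3) in FWT, 0.03 ± 0.07 (SD, n = 3) in MWT, -0.18 ± 0.32 (SD, n = 5) in FKO and -0.01 ± 0.08 (SD, n = 4) in MKO mice. The periportal mean was 0.12 ± 0.20, 0.09 ± 0.16, -0.19 ± 0.13 and 0.08 ± 0.11 in the same order. The pericentral SD was larger in females than in males in both genotypes, with FWT1 at 0.47 and FWT2 at -0.04, FKO1 at -0.67 and FKO5 at 0.11. FKO1 was lowest of all mice on both lists. Pericentral minus periportal was 0.18 ± 0.42 (SD, n = 3) in FWT, -0.06 ± 0.19 (SD, n = 3) in MWT, 0.00 ± 0.22 (SD, n = 5) in FKO and -0.09 ± 0.14 (SD, n = 4) in MKO mice, and the ranges of all 4 groups overlapped.

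**Figure D5:**
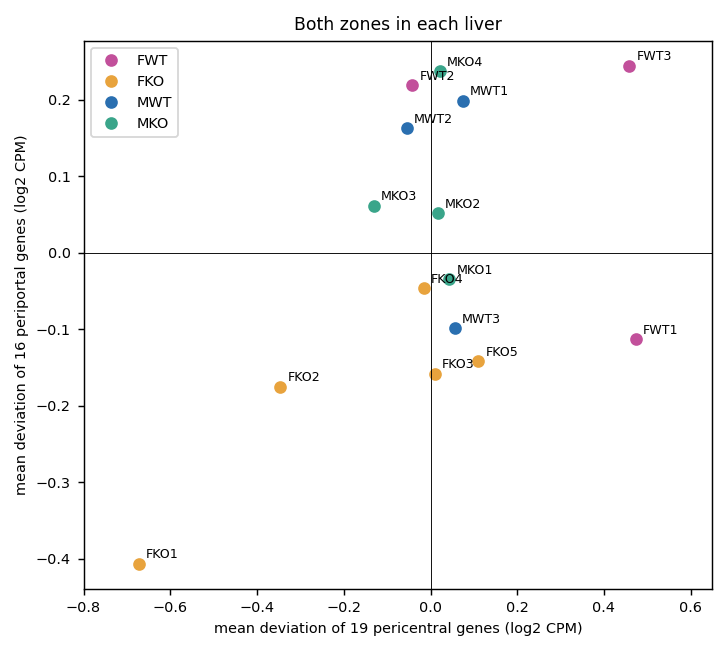
Mean deviation from the 15-mouse mean, in log2 CPM, of the 19 pericentral genes (horizontal) and the 16 periportal genes (vertical), 1 point per mouse coloured by group. FKO1 and FKO2 lie at the lower left, FWT1 and FWT3 at the right (0.47 and 0.46), and the 7 male mice keep within -0.13 and 0.07 on the horizontal axis.

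Upstream of the pericentral genes, Wnt ligands and R-spondins were not called. Of 11 genes for ligands, R-spondins and Wnt secretion, 9 could be tested and 0 were called by edgeR or DESeq2 in either sex, none with an unadjusted p under 0.05. *Wnt2* and *Wnt9b*, which central vein endothelium makes, had female log2 fold changes of -0.32 (adjusted p = 0.464) and -0.33 (0.529), and *Rspo3* one of -0.02 with an interval of -0.35 to 0.31. Among 10 tested receptors, 2 fell in ESR1KO females, against 5.71% of all genes tested that were called. These were *Fzd8* with a log2 fold change of -1.09 (SE 0.24, adjusted p = 0.0148) and *Lrp5* with one of -0.59 (SE 0.16, adjusted p = 0.0364). In males edgeR called 0 receptors, with 2 at an unadjusted p under 0.05 and 1 by DESeq2 (*Lgr4*). Among 18 intracellular members, edgeR called 1 in females (*Tcf7*, a TCF/LEF factor, -0.89 (SE 0.22, adjusted p = 0.0286)), where 5.71% of all genes tested were called. DESeq2 called *Tcf7* and *Bcl9l* there, and 4 of the 18 had an unadjusted p under 0.05. In males edgeR and DESeq2 called 0 of the 18, with 1 at an unadjusted p under 0.05. β-catenin itself, *Ctnnb1*, had a log2 fold change of -0.06 in females with an interval of -0.25 to 0.13. The female estimate was below 0 for 8 of the 9 ligand and secretion genes, 8 of the 10 receptors and 15 of the 18 intracellular members. The share of all genes tested was 50.1%. In males the counts were 3, 5 and 14.

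Of the secreted and other inhibitors of the pathway, 8 of 13 could be tested. In females edgeR called 2 of the 8, against 5.71% of all genes tested, and in males 2, against 1.42%. The female estimate was below 0 for 5 of the 8. *Notum*, an enzyme that inactivates Wnt proteins and is itself a pericentral target of the pathway, was at 59.1, 47.8 and 45.4 CPM in FWT and 17.9, 20.2, 30.3, 31.6 and 34.7 CPM in FKO mice, a log2 fold change of -0.91 (SE 0.18, adjusted p = 0.00553) with groups apart. It was at 37.3, 31.8 and 36.3 CPM in MWT and 24.7, 25.2, 21.7 and 26.5 CPM in MKO mice, also apart, with -0.52 (adjusted p = 0.228). The female call for *Notum* stayed with each mouse left out in turn and without FKO1 and FKO2 (-0.66, adjusted p = 0.00393), but not with the females fitted alone, where *Fzd8*, *Lrp5* and *Tcf7* were not called either. *Fzd8* lost the call without FWT1 or FWT3, *Lrp5* without any 1 of the FWT mice, FKO2 or MKO1, and *Tcf7* without FWT1, FWT3, FKO1, FKO2 or FKO4. *Fzd8* stayed called without FKO1 and FKO2 (-0.78, adjusted p = 0.0368), and *Lrp5* and *Tcf7* did not (adjusted p = 0.0872 and 0.103). *Wif1* was called lower in both sexes and *Dkk4* in males, at under 1 CPM and at most 33 reads in any mouse. *Wif1* had 0.138, 0.184 and 0.481 CPM in FWT and at most 0.0782 in FKO mice (adjusted p = 0.0192), and 0.543, 0.220 and 0.523 in MWT and at most 0.117 in MKO mice (0.0180). The *Wif1* call was lost in females without FWT3 and without FKO1 and FKO2 (adjusted p = 0.0745), and in males without MWT1, MWT3, MKO1, MKO3 or MKO4, and that of *Dkk4* (adjusted p = 0.0180) without MWT1, MWT3 or MKO4.

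Few markers of other liver cell types were called between genotypes, where 5.71% of all genes tested were called in females and 1.42% in males. None of 8 endothelial markers was called by edgeR in either sex, with 1 in females and 1 in males at an unadjusted p under 0.05 and 1 (*Lyve1*, females) by DESeq2, and their summed level ran from 481 to 497 CPM in FWT, 400.1 to 530.2 in FKO, 340.4 to 476 in MWT and 433 to 533 in MKO mice. Of 6 hepatocyte, 6 Kupffer cell, 6 stellate cell and 3 lymphocyte markers, edgeR called 0 in either genotype comparison, with 3 in females and 5 in males at an unadjusted p under 0.05 and 1 in each by DESeq2 (*Ttr* and *Alb*). Of 3 erythroid genes *Alas2*, of heme synthesis, rose in females (2.56, adjusted p = 9.34e-06), and the tested pancreas gene *Cela1* fell in males (-0.99, adjusted p = 0.00804, lost without MWT1). Of the 2 adipose genes 1 could be tested, *Cidec*, a lipid droplet protein that fatty hepatocytes also make. Its mean level was 1.07 ± 0.297 CPM in MWT (SD, n = 3) and 4.77 ± 3.57 CPM in MKO (SD, n = 4), with no overlap, a log2 fold change of 2.18 and an edgeR adjusted p of 0.0507. DESeq2 called it in males (adjusted p = 0.0105), as did edgeR without FKO1 and FKO2, and in females it was not called by either tool (log2 fold change 1.55, edgeR adjusted p = 0.102). The part of these cells in the member values was not tested.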

How the data were processed

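Liver RNA of 15 mice was sequenced, with 1 library per mouse, and the mice were grouped by the sex and genotype in their labels. Per the submitters' processing notes, the authors used Trimmomatic 0.36 for trimming, STAR for alignment to GRCm38 and HTSeq 0.6.0 for counting reads in genes. The paper's methods name a later HTSeq version, and which version made the counts could not be settled. The deposited values are these raw counts without normalization. Samples with few reads had an additional sequencing run, and which ones is not given in the sources used here, nor are the strand setting, the release of the annotation and the rule for reads with several matches. Every column was matched to a mouse.

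The analysis used edgeR 4.0.16 under R 4.3.3. Low counts were removed with filterByExpr by group, and libraries were scaled by TMM and fitted with a mean per group over all 15 libraries in a quasi-likelihood model. The Benjamini-Hochberg adjustment covered all genes tested, and intervals are at 95%. The contrasts were FWT minus MWT, FKO minus FWT, MKO minus MWT, FKO minus MKO and the female minus the male genotype effect. Alternatives were DESeq2 1.42.0, other scalings and filters, only the groups compared, a replicate block, each mouse left out, and the study's fold minimum for genes that differ between the sexes. The fit was tested on simulated counts. TMM factors enter the CPM, with a prior count of 2 on the log2 scale. Coordinates and exon lengths come from GENCODE M21. The members, the other gene lists, the markers and the rule for naming genes (all members accounted for, values for those called and for classic zone markers, and genes of other lists only where called, at most the 4 with the lowest p per list) were chosen with earlier results of these data known. A few genes of these lists (*Rspo3*, *Wnt2*, *Wnt9b* and *Ctnnb1*, and those that DESeq2 alone called) were named after their values were seen. The precision of a fold rests on the number of mice as well as on depth.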

Additional observations from a re-analysis of the deposited data

Results flagged for a closer look

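A mouse far from the others of its group was looked for in each member within the FKO and MKO groups, 70 sets of 4 or 5 values in all, by Dixon's test at the 95% level, which flags about 1 in 20 sets by chance. In 3 sets a mouse stood apart. *Slc1a2*, the pericentral glutamate transporter, was at 289 CPM in FKO5, while the other 4 FKO mice lay between 192 and 211. *Axin2* was at 10.01 CPM in MKO1, against 7.54 to 7.62 in the other 3 MKO mice. *Agxt* was at 245 CPM in the same mouse, against 281 to 286. MKO1 also had the lowest total count of all mice, 27799061. Groups of 3 mice were not examined in this way.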

How the results depend on the processing

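Folds of called members kept their sign under every alternative. Main counts of called members were 3 (FWT minus MWT), 10 (FKO minus FWT), 1 (MKO minus MWT), 0 (FKO minus MKO) and 0 (interaction). With DESeq2 they were 5, 12 (the 10 with *Slc1a2* and *Agxt*), 1, 1 and 1. Without a filter the FKO minus MKO count was 1. With only the groups compared, the genotype counts were 3 in females and 2 in males (*Cyp2f2* and *Cdh1*). At an unadjusted p under 0.05 the counts were 10, 18, 5, 7 and 10, and with a log2 fold change of at least 1.5 they were 0 in every comparison. Without FKO1 and FKO2, chosen after seeing the data, they were 7 (FWT minus MWT), 6 (FKO minus FWT) and 1 (interaction). With 1 mouse left out they ranged from 1 to 5 for FWT minus MWT, 1 to 12 for FKO minus FWT, 0 to 1 for MKO minus MWT, 0 to 1 for FKO minus MKO and 0 to 0 for the interaction. The cause of these shifts was not tested, and fits without a mouse hold fewer samples. The share of all genes called was worked out only for the main fit and for the female genotype comparison without FKO1 and FKO2.

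Same-numbered FKO and FWT mice had correlations of -0.195, 0.0858 and -0.0230 between their deviations from the group means. Over all same-numbered mice of the groups compared, the correlations ran from -0.195 to 0.140. So few values cannot show whether mice were paired, and the main fit used no pairing. With the replicate block the counts were 3 (FWT minus MWT), 11 (FKO minus FWT, with *Cyp2e1* and *Slc1a2* called and *Hsd17b13* not, adjusted p = 0.0645), 0 (MKO minus MWT, *Cdh1* at an adjusted p of 0.0967), 0 (FKO minus MKO) and 0 (interaction). The calls of *Shmt1* in females and of *Wif1*, *Dkk4*, *Epcam* and *Cela1* in males were also lost with the block. Other scalings moved the median over all genes by less than 0.1 on the log2 scale and changed the sign of at most 1 member per comparison (*Sds*, *Asl* or *Arg1*), none called. The pericentral minus periportal means moved by less than the spread between mice. *Sp5* and *Rhbg* were under 6 CPM in every mouse, and the part of depth in their spread was not tested.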
